A study of Mus musculus with 72 samples.

Results

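The RNA exosome is the main 3′ to 5′ RNA-degrading complex of eukaryotic cells. Its core is a barrel in which a ring of subunits, encoded by Exosc4 to Exosc9, is topped by a cap of RNA-binding subunits, encoded by Exosc1, Exosc2 and Exosc3. The mammalian ring has no catalytic activity of its own, and RNA is cut by the associated nucleases Exosc10 and Dis3. The complex trims ribosomal RNA precursors and clears faulty or short-lived transcripts in the nucleus, and in the cytoplasm it degrades mRNA together with the SKI complex. The genes described here were the 10 listed by symbol, Exosc1, Exosc2, Exosc3, Exosc4, Exosc5, Exosc7, Exosc8, Exosc9, Exosc10 and Dis3, of 51826 genes in the count files. What was followed is their own mRNA, where in the cell it lay and how fast it was replaced.

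The cells were E14TG2a mouse embryonic stem cells, an established line, grown with LIF and the 2i inhibitors. They were labeled with 4-thiouridine (4sU), a uridine analog that enters new RNA and is read as a T-to-C (T2C) conversion in SLAM-seq. Cultures were then split into a nuclear, a cytosolic and a membrane fraction by stepwise detergent extraction, beside whole-cell RNA, and poly(A) RNA was sequenced. Labeling ran for 15, 20 and 30 min in replicates 1 and 2, for 20, 40 and 60 min in replicates 3 and 4, and for 60 and 120 min in replicates 5 and 6. The labels give 500 µM 4sU for 15 to 40 min and 100 µM for 60 and 120 min. Replicate pairs shared a labeling time only at 20 min (replicates 1 to 4) and 60 min (replicates 3 to 6), where they can be compared at the same labeled dose: at 20 min the all-gene median of the nuclear exon share of new RNA was 4.84% in replicates 1 and 2 and 10.4% in replicates 3 and 4. By the labels dose changes only with time, so these cannot be told apart across the series, and the study's methods place some 60 min labeling at the higher dose. Results below rest on 64 libraries, 16 of each of the 4 fractions, from 16 cultures. Libraries held 15382522 to 52975732 reads on named genes (median 21362457). Nothing in the labels says that replicate numbers stand for independent thaws or clones, so p-values measure the spread between these cultures of 1 line.

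In the GRCm38 annotation all 10 are protein-coding genes, and the values below cover their exons and introns. Of the cap genes, Exosc1 (ENSMUSG00000034321) at chr19:41922292-41933423 on the minus strand, Exosc2 (ENSMUSG00000039356) at chr2:31670715-31681349 on the plus strand and Exosc3 (ENSMUSG00000028322) at chr4:45316613-45342732 on the minus strand were followed. The ring genes were Exosc4 (ENSMUSG00000034259) at chr15:76327397-76330677 on the plus strand, Exosc5 (ENSMUSG00000061286) at chr7:25659164-25671368 on the plus strand and Exosc7 (ENSMUSG00000025785) at chr9:123113215-123136129 on the plus strand, with Exosc8 (ENSMUSG00000027752) at chr3:54728678-54735393 on the minus strand and Exosc9 (ENSMUSG00000027714) at chr3:36552606-36565727 on the plus strand. The nucleases were Exosc10 (ENSMUSG00000017264) at chr4:148558429-148582401 on the plus strand and Dis3 (ENSMUSG00000033166) at chr14:99075206-99099770 on the minus strand.

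The fractions and cells carried the genes that mark them. The summed level of 8 membrane markers had a median of 92806 CPM (reads of a gene scaled to a common library total) in the membrane fraction and 1512 CPM in the cytosol, but 9476 CPM in the nucleus. The 5 nuclear RNAs summed to a median of 1934 CPM in the nucleus and 435 CPM in the cytosol, and the 5 cytosolic markers to 11093 CPM and 25254 CPM. The 8 pluripotency markers summed to between 4320 and 9193 CPM over all libraries. The fibroblast genes Col1a1, Col1a2, Col3a1 and Dcn, the endoderm genes Gata6, Sox17 and Sox7 and the mesoderm genes T and Mixl1 averaged under 1 CPM in every fraction. The other listed markers of these types, Thy1, Gata4 and Eomes, did not. Their lists had highest summed medians of 14.8 CPM for fibroblast (membrane fraction), 4.23 CPM for endoderm and 9.67 CPM for mesoderm (both cytosol). The 3 neural markers summed to a median of 66.5 CPM in the nucleus and 33.1 CPM in the cytosol. The nuclear 20 min library of replicate 3 had nuclear markers at 3259 CPM, the highest of all libraries, against at most 2539 CPM in the other nuclear libraries. By correlation of levels over genes it was not the nuclear library least like the others.

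All 10 mRNAs were detected in every library, with at least 282 reads. Levels between genes were compared per kilobase of merged exon (CPM per kb). Merged exons cover all annotated exons of a gene, from 1.324 kb for Exosc3 to 7.754 kb for Dis3, and the order depends on this length. In CPM without it Exosc7 was not the lowest in the cytosol: it averaged 67.9, above Exosc1 at 60.5, Exosc3 at 55.0 and Exosc4 at 53.1. In the cytosol the cap genes Exosc2, at 52.2 ± 7.87 CPM per kb, and Exosc3, at 41.6 ± 6.98 CPM per kb, were the most abundant (mean ± SD, n = 16), and Exosc2 lay above Exosc3 in 16 of 16 cultures. Exosc10 followed at 31.3 ± 4.27 CPM per kb, and above Exosc4, at 27.3 ± 2.33 CPM per kb, in 12 of 16 cultures. Exosc9 and Dis3 were neighbours that did not differ beyond their spread, at 19.5 ± 4.16 and 19.1 ± 5.35 CPM per kb, with Exosc9 the higher in 7 of 16 cultures. The third cap gene, Exosc1, was near the foot of the order at 14.9 ± 1.79 CPM per kb. The ring gene Exosc7 was the lowest in each of the 4 fractions, at 11.3 ± 1.66 CPM per kb in the cytosol and 7.19 ± 0.884 CPM per kb in the nucleus. In the nucleus the order was headed by Exosc10 at 38.2 ± 9.67 CPM per kb and Exosc2 at 34.4 ± 3.94 CPM per kb, a pair that did not separate, since Exosc10 was above Exosc2 in 9 of 16 cultures. The subunits of 1 complex thus had mRNA levels several-fold apart per kb of merged exon, and cap genes stood near both ends of that order.

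**Figure D1:**
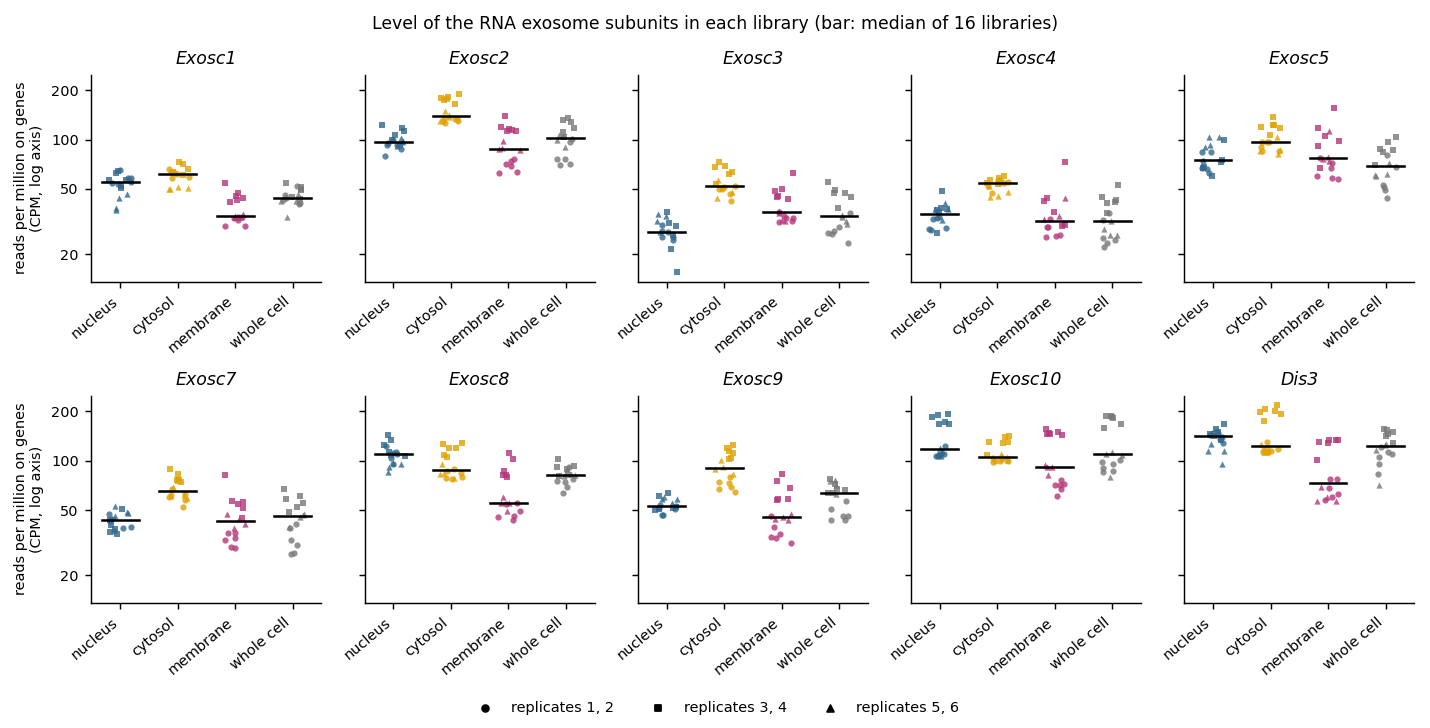
CPM of each exosome gene in every library on a log axis, by fraction, with a marker shape per replicate pair and a bar at the median of 16 libraries. Exosc3 in the nucleus sits lowest of all, between 15.5 and 36.0 CPM, and replicates 3 and 4 stand above the other pairs for Exosc10 in the nucleus and Dis3 in the cytosol.

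The first comparison asked how each mRNA was divided between nucleus and cytosol. Most subunit mRNAs were a smaller share of nuclear than of cytosolic poly(A) RNA. Of the 10 genes, 7 fell in the nucleus relative to the cytosol, 0 rose, and Exosc8, Exosc10 and Dis3 did not pass the test (adjusted p under 0.05 and a log2 difference beyond 0.5). Of all 18584 genes tested, 67.2% passed, 36.9% higher and 30.3% lower in the nucleus, so a call in either direction was common. The members' median difference was -0.81 on the log2 scale, beside 0.05 for all genes. Such levels are relative: less of a mRNA and more of all other RNA in a fraction cannot be told apart. The all-gene median itself moved to 0.25 with another scaling (RLE, with 42% higher and 23.6% lower), so the direction of differences near 0 depends on the scaling.

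Among the cap genes, Exosc3 had the strongest cytosolic bias. Its level ran from 15.5 through a median of 27.5 to 36.0 CPM in the nucleus and from 42.3 through 51.8 to 72.8 CPM in the cytosol, and the fractions did not overlap. The log2 difference was -1.30 (SE 0.10, edgeR adjusted p = 2e-18). Without the nuclear 20 min library of replicate 3, which held the 15.5 CPM, it was -1.24. Exosc2 ran from 79.6 through 97.1 to 124 CPM in the nucleus and from 126.5 through 139 to 190 CPM in the cytosol, again without overlap. Its log2 difference was -0.94 (SE 0.06, edgeR adjusted p = 8.2e-22). Exosc1 was less uneven, at 37.3, 54.8 and 65.1 CPM in the nucleus against 49.6, 61.9 and 73.1 CPM in the cytosol (lowest, median, highest), and the ranges overlapped. It differed by -0.54 (SE 0.06, edgeR adjusted p = 2.4e-12), close to the threshold of 0.5, and passed in 5 of 15 alternative fits.

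The ring genes were divided. Exosc9 ran from 46.8 through 52.6 to 63.2 CPM in the nucleus and from 64.9 through 90.2 to 124 CPM in the cytosol, without overlap, a log2 difference of -1.09 (SE 0.08, edgeR adjusted p = 6.4e-20). Exosc7 and Exosc4 were lower in the nucleus in 16 of 16 cultures, by log2 differences of -0.98 (SE 0.09) and -0.95 (SE 0.10), although their ranges overlapped. Exosc5 had a log2 difference of -0.69 (SE 0.11), but was lower in 13 of 16 cultures and differed by -0.01 within replicates 5 and 6, and passed in 10 of 15 alternatives. Exosc8 was the ring gene that did not follow: it ran from 85.2 through 109 to 144 CPM in the nucleus and from 76.9 through 87.3 to 129 CPM in the cytosol. Its nuclear CPM was the higher in 13 of 16 cultures, yet the scaled log2 difference was -0.15 (SE 0.08, edgeR adjusted p = 0.067), turning to 0.05 with RLE scaling. Groups that did not overlap, with the nucleus below the cytosol, were found for 10.1% of 13483 genes and for Exosc2, Exosc3 and Exosc9 here.

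The nuclease genes were spread more evenly. Exosc10, the mainly nuclear 3′ to 5′ exonuclease, ran from 107 through 117 to 194 CPM in the nucleus and from 98.2 through 106 to 142 CPM in the cytosol. Nuclear CPM exceeded cytosolic CPM in 16 of 16 cultures, by a median ratio of 1.10, but after scaling the log2 difference was -0.09 (SE 0.05, edgeR adjusted p = 0.082) and with RLE scaling 0.12. Its place among all genes, at the 45.8th percentile, was near the middle. Exosc10 also separated the replicate pairs, with 167 to 194 CPM in the nuclei of replicates 3 and 4 against 107 to 123 CPM in replicates 1 and 2 and 108 to 120 CPM in replicates 5 and 6. Dis3, which has both exo- and endonuclease activity, ran from 95.01 through 141 to 166 CPM in the nucleus and from 113 through 123 to 219 CPM in the cytosol. Nuclear CPM of Dis3 was above cytosolic CPM in 8 of 16 cultures and below it in 8, with a median ratio of 0.985. After scaling its log2 difference of -0.43 (SE 0.08, edgeR adjusted p = 2.9e-06) missed the threshold on size. It was widest in replicates 3 and 4, at -0.62, where the cytosol held 175 to 219 CPM. It was -0.20 in replicates 5 and 6 and 0.02 in replicates 1 and 2, where the cytosol held 113 to 125.6 and 113 to 130 CPM, and 0.02 without replicate 3. Within single pairs 6, 7 and 3 of the 10 genes passed (replicates 1 and 2, 3 and 4, 5 and 6), all lower in the nucleus. Of all genes 63.1%, 69.1% and 52.9% passed in these fits, with 29.6%, 22.9% and 22.5% lower. Exosc2, Exosc3 and Exosc9 passed in all 15 alternatives.

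**Figure D2:**
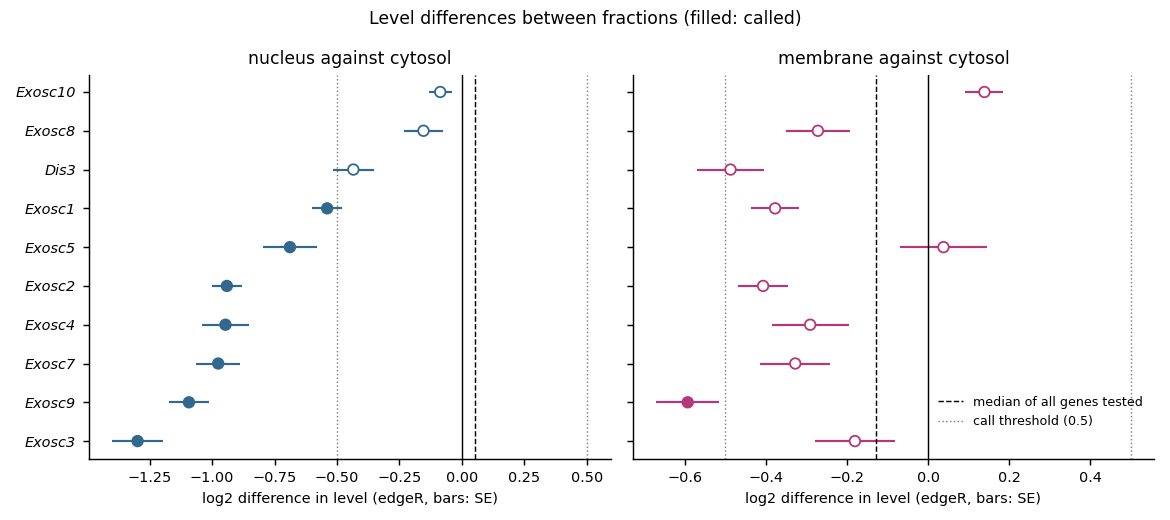
Log2 difference in level from the cytosol, with its SE, for each exosome gene in the nucleus and in the membrane fraction, with the median of all genes as a dashed line, the threshold of 0.5 dotted and filled points for genes that passed. In the nucleus Exosc3 lies lowest at -1.30 and Exosc8 (-0.15) and Exosc10 (-0.09) lie closest to the all-gene median of 0.05, while in the membrane fraction Exosc9 lies lowest at -0.59.

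The membrane fraction holds RNA bound to the endoplasmic reticulum and to other membranes, and none of the exosome subunits is a secreted or membrane protein. Exosc9 fell relative to the cytosol and was the 1 gene that passed, with a log2 difference of -0.59 (SE 0.08, edgeR adjusted p = 8.2e-10), with 31.5, 45.7 and 83.6 CPM in the membrane fraction (lowest, median, highest). Over all genes 36.7% passed, 24.4% higher and 12.4% lower, with a median of -0.13. The other 9 lay between -0.49 for Dis3 and 0.14 for Exosc10. Dis3 (edgeR adjusted p = 4.6e-07) was just short of the size threshold, and passed in 9 of 15 alternatives. In whole-cell RNA 6 of the 10 were lower than in the cytosol, within -0.76 to 0.05, while of all genes 55.9% passed, 31.9% higher and 24.0% lower. The number that passed in the membrane fraction ranged from 0 to 6 over the alternatives, the latter without replicate 4. Without replicate 4 the all-gene values moved too: 50.6% passed, 21.7% higher and 28.9% lower, with a median of -0.31. In whole-cell RNA 3 of the 10 passed without replicate 3, beside 49.6% of all genes, 34.5% higher and 15.1% lower.

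Exposure to 4sU can itself change transcription, so whole-cell levels were compared between labeling times within a replicate pair. By edgeR 0 of the 10 genes, and 0.0% of 16701 genes, passed between 15 and 30 min, 20 and 60 min, or 60 and 120 min. DESeq2 also called 0 of the 10 genes. At an unadjusted p under 0.05, 0 of the 10 remained in each comparison, as against 241, 780 and 113 of all genes by edgeR. The members' log2 differences lay within -0.45 to 0.16, -0.02 to 0.32 and -0.35 to 0.18. Each group held 2 libraries.

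The share of new RNA was measured as T2C conversions per T, divided by the conversion rate of the library, for exons and introns separately. No unlabeled background was subtracted, and the rate is an estimate, so a share can exceed 100%. Exon shares of all 10 genes were higher in the nucleus than in the cytosol. The log2 differences ran from 0.70 for Exosc10 and Exosc5 to 1.35 for Exosc2, and 10 of 10 passed. Among 11865 genes 76.5% passed, 75.8% higher and 0.784% lower, with a median of 0.88. Relative to that median 0 of the 10 passed, beside 6.3% of genes higher and 17.6% lower. The gap was narrow in replicates 5 and 6, where the all-gene median was 0.19 and 5 of the 10 passed, while 4 passed within replicates 1 and 2 and 6 with a pseudocount of 0.05 in place of 0.01.

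Among the cap genes, Exosc2 had the widest gap (log2 1.35, SE 0.19, limma adjusted p = 4.7e-07). At 60 min in replicates 3 and 4 its exon share was 30.5% ± 5.601 in the nucleus and 4.29% ± 0.0638 in the cytosol (SD, n = 2). At 120 min it was 40.0% ± 4.22 and 26.9% ± 0.680, and the nucleus was above the cytosol in 16 of 16 cultures. Exosc1 also was higher in the nucleus in 16 of 16 cultures, and reached 49.7% ± 0.184 and 44.5% ± 1.90 at 120 min. Exosc3 had no nuclear lead in its later samples: at 60 min in replicates 5 and 6 its share was 15.6% ± 0.922 in the nucleus and 16.6% ± 0.534 in the cytosol, and at 120 min 30.7% ± 3.85 and 35.4% ± 1.38. The nucleus was above the cytosol in 11 of 16 cultures for Exosc3, and in 5 of the 10 cultures labeled for 30 min or more. Its log2 difference was 0.83 over all cultures and -0.145 within replicates 5 and 6. In cultures labeled under 30 min as few as 12 T2C counts stood behind a nuclear share of Exosc3.

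Among the ring genes followed here, which leave out Exosc6, Exosc4 was renewed fastest. Its nuclear exon share was already 9.89% ± 2.67 at 15 min, beside an all-gene median of 2.76%, and 52.0% ± 0.0962 at 120 min, when the cytosol held 52.5% ± 0.0695. In the cytosol Exosc5 and Exosc8 had the lowest shares at 120 min, 11.3% ± 1.04 for Exosc5 and 10.4% ± 1.77 for Exosc8, against an all-gene median of 37.0%. In the nucleus the order differed, with Exosc5 at 18.4% ± 0.880, Exosc9 at 18.9% ± 1.23, Exosc7 at 22.8% ± 1.36 and Exosc8 at 25.8% ± 3.02, against 44.3% for all genes. The cytosolic shares of Exosc7 and Exosc9 were 17.8% ± 0.738 and 18.0% ± 0.00328. Of the nucleases, Exosc10 reached 29.1% ± 0.959 in the nucleus and 20.4% ± 4.31 in the cytosol at 120 min, and Dis3 31.3% ± 3.16 and 21.4% ± 2.80. New RNA did not differ detectably between membrane fraction and cytosol: 0 of the 10 passed, with log2 differences of -0.25 to 0.18 and a lowest limma adjusted p of 0.20, while 11.3% of 11864 genes passed, 2.28% higher and 9.04% lower.

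**Figure D3:**
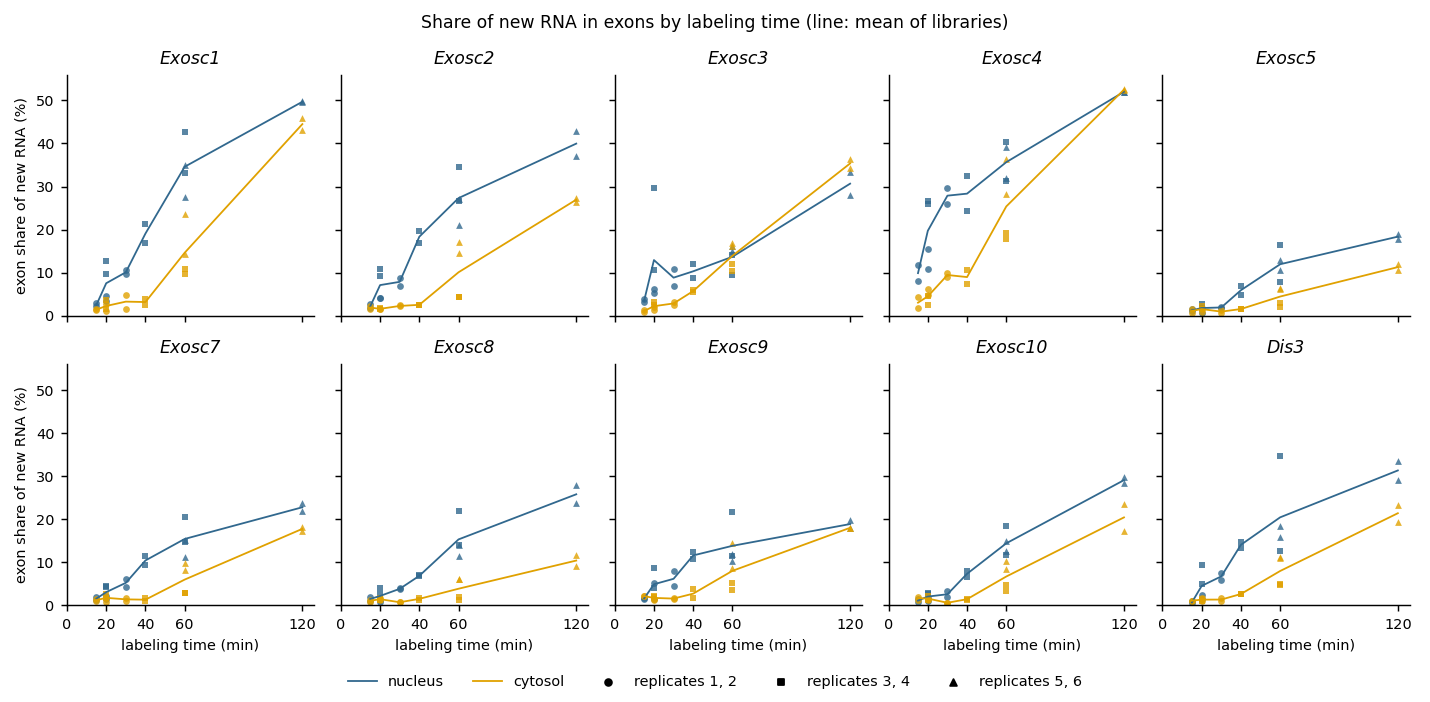
Exon share of new RNA in percent against labeling time in minutes for each exosome gene, nucleus and cytosol, with 1 point per library and lines through the mean at each time. Exosc4 climbs to 52.0% in the nucleus at 120 min, while Exosc5 and Exosc8 in the cytosol stay at 11.3% and 10.4%.

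Introns in poly(A) RNA mark transcripts from which they have not been removed. The study takes their removal as a maturation rate after polyadenylation, and not as the splicing rate. In the nucleus the intron share exceeded the exon share for 10 of 10 genes, while of 10380 genes 96.4% passed, 96.3% with the introns higher, and their median log2 difference was 1.83. Exosc3 had the widest gap at 2.97, then Exosc9 at 2.92 and Exosc10 at 2.86. Exosc3 introns had a share of 54.1% ± 0.731 after only 15 min, beside an all-gene median of 13.6%, and 110% ± 2.61 at 60 min in replicates 3 and 4, when the exons stood at 11.8% ± 3.15. Other conditions were less precise: the Exosc3 intron share was 84.2% ± 35.6 at 20 min in replicates 1 and 2, and the libraries of 60 min in replicates 5 and 6 held 45.8% and 177%, on as few as 872 intronic T. Exosc1 was at the other end with a gap of 1.06 and an intron share of 3.68% ± 1.43 at 15 min. Relative to the all-gene median, 4 genes had a wider and 2 a narrower gap, the latter being Exosc1 (-0.86) and Exosc4 (-0.57), beside 23.4% and 28.1% of all genes.

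The amount of intronic signal differed widely among the genes. For every 100 exonic T bases read in the nucleus, Exosc3 had a median of 11.96 intronic ones, the fewest of the 10, although its gene of 26.12 kb is the longest. Exosc1 had 213, Exosc7 195 and Exosc8 193 intronic T per 100 exonic, against 40.5 for all genes. Between these lay Exosc5 at 81.6, Exosc2 at 58.2, Exosc10 at 56.04 and Exosc9 at 50.8, while Exosc4 at 40.4 and Dis3 at 38.9 were at the all-gene median. Intronic T were also read outside the nucleus. Per 100 exonic T the medians ran from 1.12 for Exosc3 to 36.3 for Exosc1 in the cytosol, against 8.88 for all genes. In the membrane fraction they ran from 1.26 for Exosc3 to 38.3 for Exosc1, against 7.34. Which RNA these introns belonged to was not tested. The libraries were strand-specific and conversions were read by mate orientation, and intronic stretches under exons of other genes were removed. The strand setting of the read counts is not given in the sources used here, and Exosc3, Exosc4, Exosc8, Exosc9 and Dis3 overlap an expressed gene on the opposite strand (Dcaf10, Oplah, Supt20, Ccna2 and Pibf1) by 632, 619, 89, 863 and 347 bases.

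**Figure D4:**
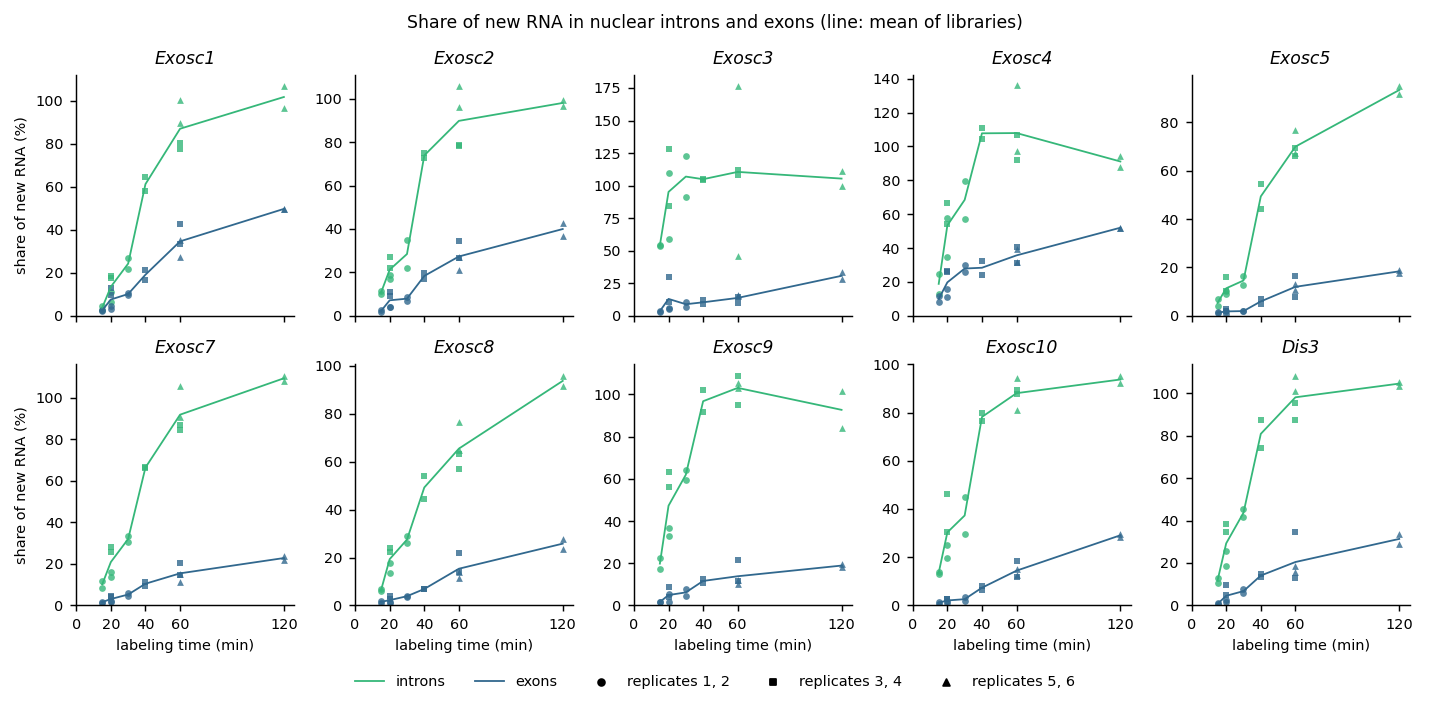
Nuclear intron share against labeling time in minutes for each exosome gene, with the exon share of the same libraries. Exosc3 introns stand at 54.1% after 15 min and Exosc1 introns at 3.68%, while exon shares lie below intron shares for all 10 genes over the libraries as a whole.

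At short labeling the share also varied along the gene. In the 8 nuclear libraries of 15 to 30 min, exons toward the 3′ end carried a higher share than exons toward the 5′ end for all 10 genes by median. No all-gene count was made here. The study describes such a decline with distance from the 3′ end for nuclear exons in general, mainly at short labeling, so it is not particular to these genes. For Exosc1 the 3′ part stood at 10.0% and the 5′ part at 1.03%, for Exosc9 at 7.29% and 1.26%, and for Exosc8 at 3.81% and 0.672%, each higher in 8 of 8 libraries. Exosc3 and Exosc10 had the weakest pattern, higher in 6 of 8 libraries each. In the cytosol the parts were closer, for example 1.35% and 1.02% for Dis3 and 1.91% and 2.03% for Exosc3. Larger cytosolic differences remained for Exosc9, at 2.43% and 1.00% (3′ part higher in 8 of 8 libraries), and Exosc4, at 6.53% and 3.69% (7 of 8).

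A single rate per gene and fraction was then fitted, the share rising as 1 - exp(-k (t - 5 min)), and expressed as a half-life. A nuclear value includes export, a cytosolic value also includes the time the RNA spent in the nucleus first, and values beyond 120 min are extrapolated. They are not half-lives of single steps, which the study's own model separates, and a cytosolic value is not the stability of a mRNA in the cytosol. The 10 genes had a median half-life of 235 min in the nucleus and 422 min in the cytosol, longer than the all-gene medians of 136 min (13022 genes) and 214 min (12328 genes). Exosc4 was the shortest in both, at 83.4 ± 4.23 min and 130 ± 10.6 min (SD over fits that each leave out 1 replicate). Exosc5 was the longest in the nucleus at 369 ± 13.1 min and had 754 ± 59.8 min in the cytosol, where Exosc8 was the longest at 831 ± 85.1 min against 265 ± 11.3 min in its nucleus. Exosc7 had 271 ± 12.6 and 502 ± 52.7 min and Exosc9 303 ± 24.5 and 447 ± 38.6 min. Among the cap genes Exosc1, at 107 ± 4.08 and 192 ± 21.6 min, was the other gene below the all-gene median in both fractions in the pooled fit. By pair its cytosolic value was 525, 417 and 146 min (replicates 1 and 2, 3 and 4, 5 and 6). That was below the all-gene median of the pair only in replicates 5 and 6. Exosc3 had nearly the same value in both when all replicates were pooled, 216 ± 7.51 and 227 ± 17.1 min. Its nuclear and cytosolic values were 185 and 609 min in replicates 1 and 2, and 214 and 345 min in replicates 3 and 4. In replicates 5 and 6 they were 219 and 189 min. Exosc2 had 139 ± 7.28 and 315 ± 37.0 min, Exosc10 254 ± 8.27 and 443 ± 60.7 min, and Dis3 192 ± 13.1 and 402 ± 40.9 min. Whole-cell values ran from 137 ± 8.08 min for Exosc4 to 636 ± 52.6 min for Exosc5. Nuclear and cytosolic values of the 10 genes moved by more than 1.5-fold between replicate pairs, apart from Exosc3 in the nucleus. The all-gene cytosolic median was 521, 396 and 173 min in replicates 1 and 2, 3 and 4, and 5 and 6. The all-gene nuclear median moved less, at 190, 134 and 135 min. Exosc4 was still the shortest of the 10 in each pair in both fractions.

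**Figure D5:**
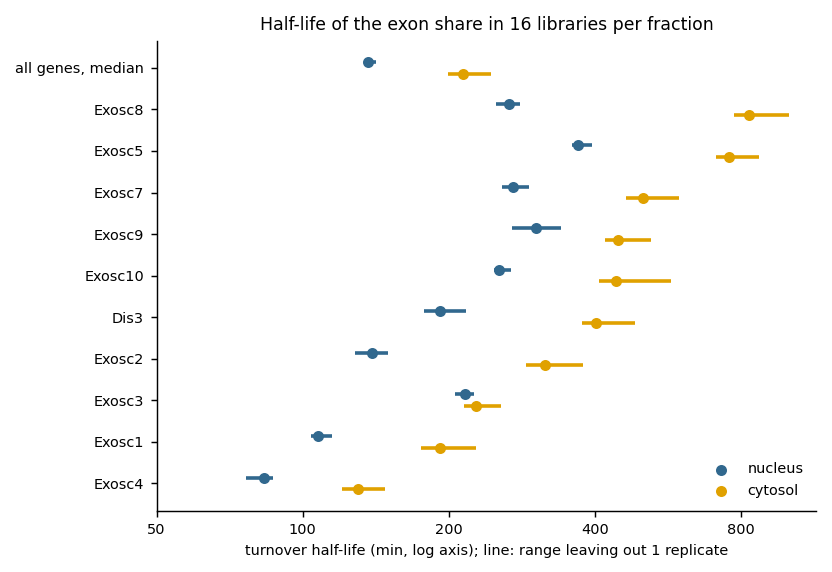
Half-life in minutes on a log axis in the nucleus and cytosol for each exosome gene, with lines for the range over fits that each leave out 1 replicate, beside the medians of all genes. Exosc4 has the shortest values, 83.4 and 130 min, and Exosc8 the longest cytosolic value, 831 min. Exosc3 has almost equal pooled values in both fractions, but not within replicates 1 and 2 (185 and 609 min).

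Genes that work with the exosome were described by a list of 17, here called cofactors although it includes the ring subunit Exosc6. Exosc6 was listed at 0 reads in the count files but had T counts, a mismatch whose cause was not tested, so 16 were tested for level. In the nucleus 3 rose relative to the cytosol and 5 fell, with a median of 0.09, while 36.9% of all genes were higher and 30.3% lower. Zfc3h1, which links the exosome to polyadenylated nuclear RNA, was the highest at a log2 difference of 2.03, with Skiv2l, the SKI helicase, at 1.11 and Pabpn1, the nuclear poly(A)-binding protein, at 1.10. Rbm7 (-1.26) of the NEXT complex, C1d (-1.24), which binds Exosc10, the nuclear cofactor Mphosph6 (-1.04), and Wdr61 (-1.02) and Hbs1l (-0.54) of the SKI pathway fell. In the membrane fraction 4 fell, Rbm7 (-0.63), Pabpn1 (-0.61), Ttc37 (-0.56) and Mtrex (-0.55), the last being the nuclear helicase of the exosome, while 12.4% of all genes were lower. Nuclear exon shares were higher for 16 of 17, Exosc6 included, as for 75.8% of all genes, from 1.92 for Pabpn1 down to 0.37 for Ttc37, which did not pass. The list had median half-lives of 106 min in the nucleus and 339 min in the cytosol, with Exosc6 the shortest at 43.7 and 59.9 min. Of 10 factors of nonsense-mediated decay, 3 rose and 1 fell in the nucleus (median 0.21), and of 14 deadenylation factors 2 rose and 5 fell (median -0.05). Differences between the lists were not tested. Their median half-lives were 112 and 198 min for nonsense-mediated decay and 129 and 219 min for deadenylation, in nucleus and cytosol.

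Levels of the 10 genes were correlated to very different degrees. Over the 64 libraries the correlation of log2(CPM + 1) between 2 exosome genes lay between 0.13 and 0.93, with a median of 0.62 over 45 pairs, a description over libraries that share cultures and fractions. The genes most like the members' average level were Pak1ip1 (r = 0.979), Rae1 (0.966) and Nsfl1c (0.965) of 13483 genes. By exon share they were Mcm5 (0.992), Eif3l (0.991) and Ptcd3 (0.989) of 11575 genes. The members' own correlations with that average ran from 0.924 (Exosc3) to 0.986 (Exosc2). Shares of genes at large rise with labeling time, with an all-gene nuclear median of 2.76% at 15 min and 44.3% at 120 min. The spread of the correlation over all genes was not computed, so these values do not show a particular likeness.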

How the data were processed

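Poly(A) RNA of 4 fractions was measured by SLAM-seq in 72 libraries. Per the labels and the study's methods, the authors aligned reads to GRCm38 with STAR 2.7.6 and deposited raw read counts per gene from HTSeq 0.11.1 (RSEM 1.3.3 is also named in the submitters' processing notes). They also deposited, per exon and intron, counts of T and T2C bases after removing sequence variants, with the fraction T2C/T and the ratio T2C/T divided by the conversion rate of the library (2.07% to 8.29%). That ratio, recomputed here, differed by at most 1.2e-13. Reads in rows that name no gene, 30.4% to 48.8% of a library, were left out.

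The study's methods set aside labeling beyond 60 min at the higher dose. The 8 libraries of 120 min of replicates 3 and 4 were taken to be these and left out, an inference, since the labels give them 100 µM, and 64 were used. Unlabeled and 180 min libraries were not used here. Counts were tested with edgeR 4.0.16 (quasi-likelihood test, low-count filter, TMM scaling) and alternatively DESeq2 1.42.0, and log2(share + 0.01) with limma 3.58.1 where every library in the fit had 400 or more T counts, each with the labeling condition (time within a replicate pair) as a term and Benjamini-Hochberg adjustment over all genes. Half-lives were fitted by least squares with a delay of 5 min. The tests across genes and the half-life fit were tested on simulated data. Fractions of 1 culture share its number by design, and the deviations of fractions correlated by -0.37 to 0.60 over 48 pairs of fractions (median 0.25, 37 over 0.1). No 2 replicates agreed within sampling noise (lowest chi-square per degree of freedom 5.08). T2C and read counts limit the precision, since a read is not an independent molecule and no molecular identifiers were given. The members and the lists of cofactors, decay and deadenylation factors were chosen with earlier results of these data known. All 10 members are named, as are the cofactors that passed or were extreme and the 3 genes most like the members by level and by share. Alternatives were another scaling, no filter, other pseudocounts and T minima, all 72 libraries, a replicate block and leaving out each replicate. Analyses within replicate pairs and without the nuclear 20 min library of replicate 3 were added after seeing the data.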

Additional observations from a re-analysis of the deposited data

Results flagged for a closer look

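Of 120 groups of 4 samples, 4 held a sample far from the other 3, where chance gives about 1 in 20. Exosc2 stood at 113 CPM in the nucleus at 20 min in replicate 4, against 92.3 to 93.2 CPM in the other 3. Exosc3 stood at 15.5 CPM in the nucleus at 20 min in replicate 3, against 26.03 to 27.5 CPM; its exon share in that library was 29.6%, from 87 T2C counts. Exosc5 stood at 68.4 CPM in the nucleus at 60 min in replicate 3, against 99.1 to 104 CPM. The exon share of Exosc9 in the nucleus at 60 min was 21.6% in replicate 3 and 10.3% to 11.9% in the others.

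In 4 cases every culture of a replicate pair moved one way and every culture of another pair the opposite way; these differences were not tested, and pairs also differ in labeling time. The membrane to cytosol ratio of the exon share of Exosc2 was 0.855 in replicates 5 and 6 and 1.53 in replicates 3 and 4. The nucleus to cytosol ratio of the exon share of Exosc3 was 0.939 in replicates 5 and 6 and 3.06 in replicates 1 and 2. The membrane to cytosol CPM ratio of Exosc10 was 0.712 in replicates 1 and 2 and 1.13 in replicates 3 and 4. That contrast of Exosc10 was seen in CPM alone: with TMM scaling the log2 differences were 0.13 and 0.34, both positive. The nucleus to cytosol CPM ratio of Dis3 was 0.726 in replicates 3 and 4 and 1.17 in replicates 1 and 2.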

How the results depend on the processing

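Levels are limited by the scaling between fractions and shares by few T2C counts at short labeling; the cause of the changes below was not tested. With a replicate block for the cultures, 7, 1 and 6 exosome genes passed for the level in nucleus, membrane fraction and whole cell, and 10, 0 and 10 for nuclear exon shares, membrane exon shares and introns, and the block changed no other call. The nuclear log2 level difference turned positive for Exosc8 with no filter on low counts (0.00348), RLE scaling (0.0498) and DESeq2 (0.0498), as within replicates 1 and 2 (0.19), and for Exosc10 with no filter (0.0617), RLE (0.12), DESeq2 (0.12) and within replicates 3 and 4 (0.29). Leaving out a replicate gave -0.23 to 0.24 for Exosc8, -0.0874 to 0.20 for Exosc10 and -0.53 to 0.0158 for Dis3, which was 0.0189 within replicates 1 and 2. In the membrane fraction Exosc3 was 0.11 within replicates 1 and 2, Exosc5 -0.0407 with no filter, -0.0451 within replicates 3 and 4 and -0.10 to 0.0584 without a replicate, and Exosc10 -0.0860 within replicates 5 and 6 and -0.0644 to 0.17 without a replicate. The count of genes that passed in the nucleus was 3 within replicates 5 and 6, where 52.9% of all genes passed, 22.5% lower. In the membrane fraction the count was 2 with no filter, RLE, DESeq2, within replicates 3 and 4 and within replicates 5 and 6. It was 0 within replicates 1 and 2 and 1 to 6 without a replicate. Over the alternatives 24.8% to 50.6% of all genes passed in the membrane fraction. Dis3 passed there in 9 of 15 alternatives. In whole-cell RNA the count was 2 within replicates 3 and 4 (51.2% of all genes) and 3 to 7 without a replicate (47.4% to 57.4% of all genes).

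For nuclear exon shares 6 passed with a pseudocount of 0.05, 0 after centring on the median of all genes, 4 within replicates 1 and 2 and 5 within replicates 5 and 6. In these fits 57.7%, 23.9%, 51.0% and 25.3% of all genes passed. Centred differences were -0.14 for Exosc3, -0.26 for Exosc5, -0.15 for Exosc9 and -0.27 for Exosc10, and Exosc3 was -0.145 within replicates 5 and 6. For introns 6 passed after centring, beside 51.5% of all genes, with -0.86 for Exosc1, -0.26 for Exosc2 and -0.57 for Exosc4. The median half-life was 255 min in the nucleus and 463 min in the cytosol with no delay, and 227 to 241 min and 392 to 475 min without a replicate. Over all genes, calls for nuclear exon shares went from 9081 to 2835 with centring and 3396 within replicates 5 and 6, for membrane exon shares from 1344 to 837 within replicates 1 and 2 and 769 within replicates 3 and 4, for introns from 10007 to 5341 with centring, and for the whole-cell time comparisons from 0 to 6, 49 and 53 with no filter. The nuclear levels of Exosc2, Exosc3 and Exosc9 kept their direction and call in all 15 alternatives.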
